A study of Mus musculus with 12 samples.

Results

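The 8 genes described here, Sprr1a, Ecel1, Gap43, Sox11, Gal, Klf6, Npy and Adcyap1, are genes that injured neurons, retinal ganglion cells (RGCs) among them, are known to induce when their axons are damaged. They were taken by name from a table of 24340 rows, and all 8 belonged to the 18509 genes above 0 in at least 1 retina. Each library was made from 1 retina, and the 12 retinas came from both eyes of 6 p16-3MR mice of 12 to 16 weeks, with 3 retinas in each of 4 groups. All 6 mice carried the p16-3MR transgene, a reporter fused to a viral thymidine kinase and driven by the p16 regulatory region, so that ganciclovir (GCV) is toxic to the cells that express it. In each mouse the intraocular pressure (IOP) of 1 eye was held at 85 to 90 mm Hg for 60 min by saline infusion, the fellow eye served as the control retina, and the tissue was collected on day 3. Mice 1, 2 and 5 received GCV by intraperitoneal injection at 25 mg/kg a day and mice 3, 4 and 6 received no GCV. The paper describes a sham treatment of control mice with PBS or vehicle, and the labels of these 3 mice do not name one. The 4 groups are therefore control retinas, IOP-treated retinas, control retinas with GCV and IOP-treated retinas with GCV. The control eyes belonged to the same animals as the IOP-treated eyes, and mice without the transgene were not analysed here.

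Axon damage sets off a transcriptional program in the cell body in which stress-activated transcription factors turn on growth-associated proteins, cytoskeletal proteins and neuropeptides. In the retina this program runs in RGCs, the neurons whose axons form the optic nerve, and some of its genes are also used by glia or by epithelia. The study raised IOP as an acute injury, at a pressure that the paper describes as likely ischemic. The comparisons below ask how far the 8 genes responded by day 3, and whether GCV changed that response. RNA of a whole retina does not show in which cells a gene responded. Among the members, Sox11 and Klf6 are transcription factors that act in axon growth, Sprr1a is a small proline-rich protein that promotes outgrowth in injured neurons and otherwise belongs to the cornified envelope of epithelia, and Ecel1 is a neuronal membrane endopeptidase induced by nerve injury. Gap43 is a growth cone protein. Gal (galanin), Npy (neuropeptide Y) and Adcyap1 (PACAP) encode secreted neuropeptides.

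Stretches before start sites of 5 members that were higher in IOP-treated retinas are shown. That of Ecel1 lies inside the annotated gene, before an inner start site. Of the stretches, 3 hold letters like those bound by the injury-activated AP-1 and ATF/CREB families and 2 do not. They are read 5′ to 3′ on the strand of the gene from RefSeq promoters of build GRCm38.p6, with matches to TGANTCA or TGANNTCA in capitals.
Sprr1a, chr3:92485965-92486114, minus strand: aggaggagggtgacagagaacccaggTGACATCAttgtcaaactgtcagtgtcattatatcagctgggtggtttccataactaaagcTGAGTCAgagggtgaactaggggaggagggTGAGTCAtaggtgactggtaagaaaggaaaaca
Sox11, chr12:27342727-27342786, minus strand: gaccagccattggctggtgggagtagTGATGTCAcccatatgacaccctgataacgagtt
Klf6, chr13:5861344-5861403, plus strand: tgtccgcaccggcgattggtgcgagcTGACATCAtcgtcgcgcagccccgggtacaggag
Ecel1, chr1:87156357-87156456, minus strand: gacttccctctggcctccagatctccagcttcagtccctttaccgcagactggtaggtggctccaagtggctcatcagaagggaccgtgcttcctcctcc
Gal, chr19:3414545-3414644, minus strand: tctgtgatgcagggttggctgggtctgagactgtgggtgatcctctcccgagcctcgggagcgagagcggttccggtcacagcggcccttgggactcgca

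The promoter windows ran from 250 bases before to 50 bases after each start site, and 7 of the 8 members had one. Both patterns read the same on either strand, and no matches overlapped. The Sprr1a window held TGAGTCA at 146 and at 116 bases before the start and TGACATCA at 207 bases before it. Sox11 held TGATGTCA at 42 bases before the start and Klf6 TGACATCA at 119 bases before it. No match stood in the windows of Ecel1, Gal, Npy or Adcyap1, the last of which had 2 windows. The windows of Ecel1 and Adcyap1 lie inside the annotated genes, so the outer ends of these genes were not searched. Of 32851 promoters of this length, 7.81% held TGANTCA and 14.1% held TGANNTCA in at least 1 place. TGANNTCA is a loosened form of the full ATF/CREB site TGACGTCA, which 1.79% held and no member window did. The letters were searched with these sequences in view, and the matches describe the windows only.

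All 8 members are annotated on GRCm38.p6, the same build as the mm10 that the submitters name. Sprr1a lies at chr3:92483954-92485881, Ecel1 at chr1:87142874-87157085, Gap43 at chr16:42248552-42340651 and Sox11 at chr12:27334268-27342718. Gal lies at chr19:3409915-3414544, Klf6 at chr13:5861489-5870393, Npy at chr6:49822710-49829507 and Adcyap1 at chr17:93198245-93206541. The 8 genes are thus on 8 chromosomes and are not neighbours.

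Levels are given in FPKM, fragments per kilobase of exon scaled to the size of the library, a value per length that can be compared between genes. In control retinas the members spanned a wide range of levels. Gap43, at 42.6 ± 11.8 FPKM (SD, n = 6), and Npy, at 39.3 ± 6.23 FPKM, were the most abundant and did not differ beyond their spread. Klf6 followed at 7.54 ± 0.664 FPKM, and Sprr1a, at 3.01 ± 3.54 FPKM, overlapped with Adcyap1, at 1.99 ± 0.604 FPKM. Gal, at 0.841 ± 0.528 FPKM, Sox11, at 0.263 ± 0.0832 FPKM, and Ecel1, at 0.125 ± 0.0820 FPKM, were nearly silent. In IOP-treated retinas Gap43, at 40.2 ± 13.3 FPKM, and Npy, at 31.8 ± 12.0 FPKM, were still the highest. Sprr1a, at 20.2 ± 14.3 FPKM, then stood above Klf6, at 12.5 ± 3.75 FPKM, within its spread. Gal, at 5.69 ± 5.44 FPKM, and Ecel1, at 5.15 ± 2.16 FPKM, were next and overlapped each other and Adcyap1, at 2.68 ± 1.42 FPKM, and Sox11 was lowest at 1.01 ± 0.573 FPKM.

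The libraries held an estimated 6860000 to 8980000 fragments, except in mouse 6, whose IOP-treated retina held 3970000. That retina detected 14841 genes, and the other 11 detected 16040 to 16589. Rod markers summed to 29116 to 53867 FPKM in every retina, as the label of the tissue says. Lens markers were uneven, at 4.26 to 27.6 FPKM in control retinas, 48.3 to 5384 FPKM in control retinas with GCV, 61.7 to 3364 FPKM in IOP-treated retinas and 2189 to 4302 FPKM in IOP-treated retinas with GCV, and 5 of 9 were called higher after IOP elevation. RGC markers summed to 927 to 1883 FPKM in the 6 control retinas and to 226 to 1021 FPKM in the 6 IOP-treated retinas. Of these 10 markers 8 were called lower, and in these bulk samples fewer cells of a type and less RNA per cell cannot be told apart. The mean difference of the RGC markers between the eyes of a mouse lay between -1.89 and -0.566 on the log2 scale in mice 1, 2, 3, 5 and 6 and was -0.03 in mouse 4.

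Over all 6 mice, 5 of the 8 members rose with IOP elevation: Ecel1, Sprr1a, Gal, Sox11 and Klf6. The other 3 members, Gap43, Npy and Adcyap1, did not pass the test, and no member was called lower. Genes with an adjusted p under 0.05 were called (limma on log2(FPKM + 1), Benjamini-Hochberg adjustment over all 18509 genes), and log2 differences on this scale understate the change of low genes. The test called 12.2% of all genes in either direction, 6.76% higher and 5.44% lower. Members were chosen with earlier results of these data known, so these shares are a background and not a test. The median difference of the 8 members was 0.62 and that of all genes 0.01. Each of the 5 called members was higher in the IOP-treated eye of 6 of 6 mice, which 10.7% of all genes were. For Ecel1 and Gal the 6 IOP-treated retinas lay above all 6 control retinas, which held for 5.47% of all genes. The calls were made on the same retinas, so these counts describe the called members and are not separate support. With the eyes of a mouse treated as pairs, 3 members were called (Sprr1a, Ecel1 and Sox11), and without both retinas of mouse 6, which included the shallowest library, 2 were called (Sprr1a and Ecel1).

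**Figure D1:**
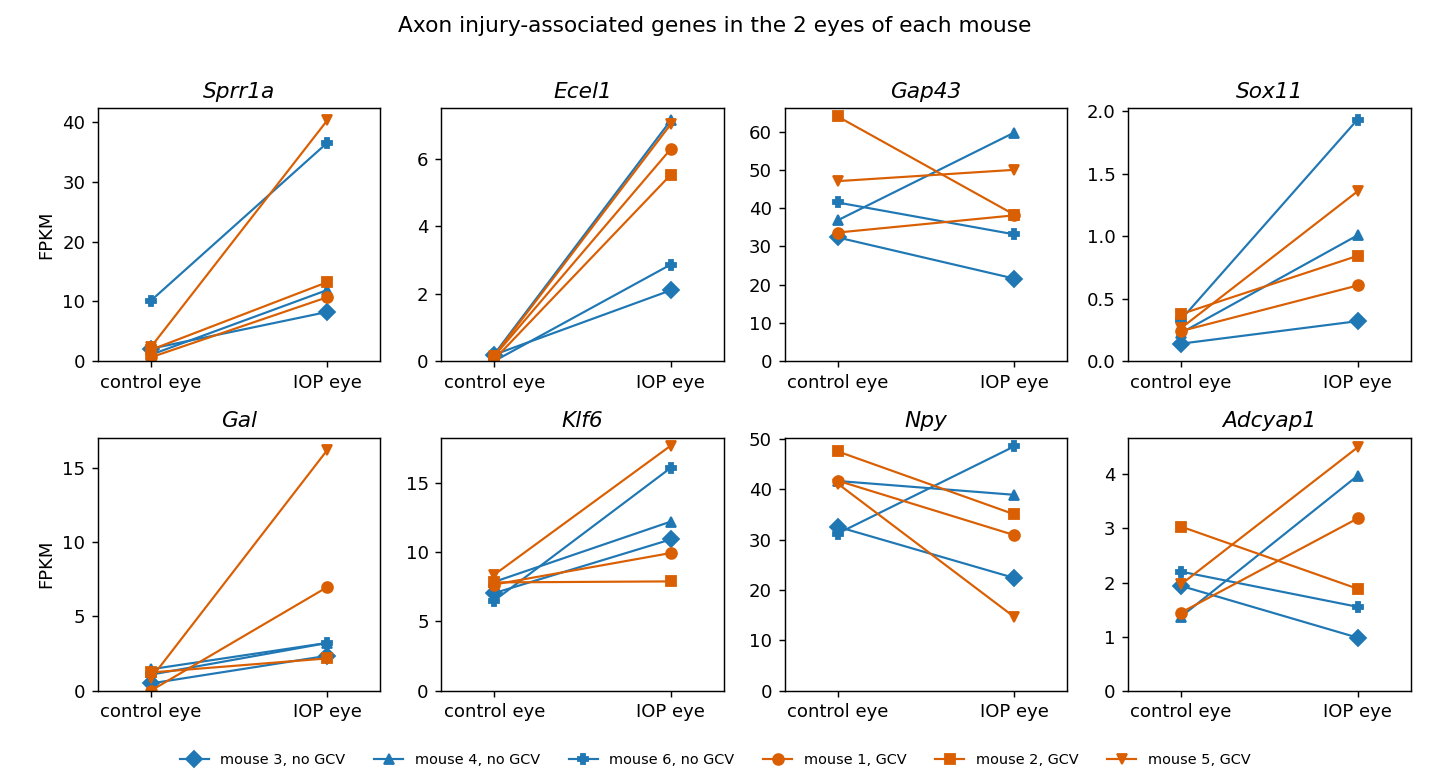
Level of each of the 8 genes in FPKM (linear vertical axis, starting at 0 in each panel) in the control and the IOP-treated eye of each mouse. Points are single retinas, lines join the 2 eyes of a mouse, and colour marks GCV. Lines of Sprr1a, Ecel1, Sox11, Gal and Klf6 go up in all 6 mice, while those of Gap43, Npy and Adcyap1 go both ways.

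Ecel1, the membrane endopeptidase, went from almost no signal to a clear one in every mouse. Without GCV it stood at 0.190, 0.203 and 0 FPKM in the control retinas of mice 3, 4 and 6, and at 2.10, 7.13 and 2.86 FPKM in the IOP-treated retinas of the same mice. With GCV it stood at 0.147, 0.0480 and 0.161 FPKM in the control retinas of mice 1, 2 and 5, and at 6.28, 5.52 and 7.02 FPKM in their IOP-treated retinas. The lowest IOP-treated retina, that of mouse 3, stood well above the highest control retina, and the groups did not overlap. The control values rest on an estimated 0 to 5.2 fragments and the IOP-treated values on 32.5 to 176 fragments. Over 6 mice Ecel1 differed by 2.36 on the log2 scale (standard error 0.21, adjusted p = 0.000317, limma), and the ratio of the means was 41.3. The call held in all 12 fits with 1 retina left out (adjusted p 8.49e-05 to 0.00191, limma).

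Sprr1a, the small proline-rich protein, rose as well, with a wider spread between mice. In mice 3, 4 and 6 its control retinas held 2.07, 1.05 and 10.1 FPKM and the IOP-treated retinas 8.24, 11.9 and 36.6 FPKM. In mice 1, 2 and 5, under GCV, the control retinas held 0.632, 1.88 and 2.34 FPKM and the IOP-treated retinas 10.7, 13.2 and 40.3 FPKM. The control retina of mouse 6 stood above the IOP-treated retina of mouse 3, so the groups overlapped, although within each mouse the IOP-treated eye was 3.62 to 17.3 times the control eye. Over 6 mice Sprr1a differed by 2.46 on the log2 scale (standard error 0.51, adjusted p = 0.0170, limma). It too was called with any 1 of the 12 retinas left out (adjusted p 0.00916 to 0.0475, limma).

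Because Sprr1a is also an epithelial gene, its values were set beside those of 10 cornea and conjunctiva markers. None of these markers was called higher over the 6 mice and 1, Lor, a cornified envelope protein, was called lower. Their sum was 10.1 to 37.3 FPKM in the 6 control retinas and 5.41 to 140 FPKM in the 6 IOP-treated retinas. In the IOP-treated retinas without GCV the sum was 140, 9.54 and 5.41 FPKM in mice 3, 4 and 6, where Sprr1a was at 8.24, 11.9 and 36.6 FPKM, so that the higher sum went with the lower Sprr1a. In the IOP-treated retinas with GCV it was 31.9, 39.5 and 58.6 FPKM in mice 1, 2 and 5, where Sprr1a was at 10.7, 13.2 and 40.3 FPKM, so that both had the same order. Most of the sum in mice 1 and 5 came from 1 marker, Aldh3a1, a corneal aldehyde dehydrogenase, and the shared order rested on this marker. In mouse 5 it was at 54.6 FPKM against 1.02 FPKM in the control eye. Among control retinas, that of mouse 6 had both the highest sum, 37.3 FPKM, and the highest Sprr1a. The same retina was also the highest control for markers of astrocytes and reactive glia (143 FPKM) and of microglia and macrophages (84.9 FPKM). Lens markers, like Sprr1a, summed higher in the IOP-treated eye of mice 2, 3, 4, 5 and 6, with the lowest IOP-treated sum, 61.7 FPKM, in mouse 3, and they summed lower in that of mouse 1 (4302 against 5384 FPKM), where Sprr1a was higher. The part of epithelial, lens, glial or microglial RNA in the Sprr1a values was not tested.

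The other genes of the Sprr family did not follow Sprr1a. Of 11 further family members in the table, 5 were above 0 in at least 1 retina, and none exceeded 1.23 FPKM in any retina. Sprr1b, the most abundant, was at 1.23 FPKM in the control retina of mouse 6 and was listed at 0 in all 6 IOP-treated retinas. Sprr2f was called lower (adjusted p = 0.0359, limma) from at most 0.518 FPKM in control retinas, and it too was listed at 0 in all 6 IOP-treated retinas. The members of this family resemble each other in sequence, and reads that fit several of them could be divided differently by another counting method.

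Sox11, a transcription factor of the SoxC group that is active in developing neurons and promotes RGC axon growth, was low in every retina and higher after IOP elevation. Its control retinas without GCV held 0.140, 0.225 and 0.332 FPKM in mice 3, 4 and 6, and the IOP-treated retinas 0.320, 1.01 and 1.93 FPKM. With GCV the control retinas of mice 1, 2 and 5 held 0.240, 0.376 and 0.264 FPKM, and the IOP-treated retinas 0.605, 0.842 and 1.36 FPKM. Only the IOP-treated retina of mouse 3 fell within the range of the control retinas. The long Sox11 transcript gave an estimated 8.8 to 23.4 fragments in control and 20.5 to 96.7 fragments in IOP-treated retinas. For Sox11 the difference over 6 mice was 0.63 on the log2 scale (standard error 0.17, adjusted p = 0.0434, limma), and the ratio of the means was 3.85. The call was lost when any 1 of the 6 control retinas or the IOP-treated retina of mouse 2 or 5 was left out (adjusted p 0.0623 to 0.0961, limma), and with quantile normalization (adjusted p = 0.0780, limma), and it stood when any other single IOP-treated retina was left out.

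Klf6, a Krüppel-like zinc finger factor that supports axon regrowth, was expressed in every retina and rose by the smallest ratio. Control retinas without GCV held 7.04, 7.86 and 6.50 FPKM in mice 3, 4 and 6, and IOP-treated retinas 10.9, 12.2 and 16.1 FPKM. With GCV, control retinas of mice 1, 2 and 5 held 7.66, 7.82 and 8.37 FPKM and IOP-treated retinas 9.94, 7.89 and 17.7 FPKM. The eyes of mouse 2 were nearly equal, and its IOP-treated retina, which lay below the control retina of mouse 5, was the only one within the range of the control retinas. Klf6 differed by 0.61 on the log2 scale over 6 mice (standard error 0.17, adjusted p = 0.0447, limma), with a ratio of the means of 1.65. With the eyes of each mouse as pairs the adjusted p was 0.0650 (limma). The call was also lost without any 1 of the 6 control retinas, or without the IOP-treated retina of mouse 1, 3 or 6 (adjusted p 0.0529 to 0.0989, limma).

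Gap43, the growth cone protein, did not move in one direction. In mice 3, 4 and 6 its control retinas held 32.4, 36.8 and 41.5 FPKM and the IOP-treated retinas 21.6, 59.8 and 33.2 FPKM. In mice 1, 2 and 5, with GCV, its control retinas held 33.6, 64.0 and 47.1 FPKM and the IOP-treated retinas 38.1, 38.3 and 50.1 FPKM. It was higher in the IOP-treated eye of mice 1, 4 and 5 and lower in that of mice 2, 3 and 6. Its difference over 6 mice was -0.11 on the log2 scale (95% interval -0.62 to 0.40, adjusted p = 0.786, limma).

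Gap43 is abundant in RGCs, whose markers were lower in IOP-treated retinas. The mean difference of the 10 RGC markers was -1.27 ± 0.776 on the log2 scale (SD, n = 6 mice), while the median of all genes was 0.01. Mouse 4, which had the least change of RGC markers, had the most positive Gap43 difference, 0.68. The most negative, -0.72, was in mouse 2, where the mean difference of the RGC markers was -1.75. In mouse 5 that mean was -1.79, and Gap43 was higher by 0.09. The part of RGC number in the Gap43 values was not tested.

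Gal, which encodes the neuropeptide galanin, rose from near the floor of detection. In mice 3, 4 and 6 its control retinas held 0.486, 1.44 and 1.08 FPKM and the IOP-treated retinas 2.35, 3.22 and 3.21 FPKM. In the GCV-treated mice 1, 2 and 5 the control retinas held 0, 1.22 and 0.820 FPKM and the IOP-treated retinas 6.98, 2.17 and 16.2 FPKM. All 6 IOP-treated retinas were above all 6 control retinas, and mice 1 and 5 stood out with the highest values. Control values rest on an estimated 0 to 8.0 fragments and IOP-treated values on 7.9 to 87.5 fragments. Gal differed by 1.62 on the log2 scale over 6 mice (standard error 0.37, adjusted p = 0.0239, limma). With the eyes as pairs the adjusted p was 0.0502 (limma). Without the control retina of mouse 1, 3, 5 or 6 it was 0.0518 to 0.0625 (limma).

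Npy encodes neuropeptide Y, which amacrine cells of the retina also make. Without GCV its control retinas held 32.6, 41.7 and 31.2 FPKM in mice 3, 4 and 6, and its IOP-treated retinas 22.4, 38.9 and 48.5 FPKM. With GCV its control retinas held 41.7, 47.6 and 41.2 FPKM in mice 1, 2 and 5, and its IOP-treated retinas 30.9, 35.1 and 14.7 FPKM. Npy was lower in the IOP-treated eye of 5 of 6 mice and higher in that of mouse 6, whose IOP-treated library was the shallowest. The Npy difference over 6 mice was -0.38 on the log2 scale (95% interval -0.89 to 0.13, adjusted p = 0.305, limma). Of 8 amacrine cell markers 4 were called lower over the same mice, with sums of 168 to 243 FPKM in control retinas against 53.5 to 166 FPKM after IOP elevation, and their part in the Npy values was not tested.

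Adcyap1 encodes PACAP, a peptide with known protective actions on RGCs. Its control retinas without GCV held 1.94, 1.37 and 2.20 FPKM in mice 3, 4 and 6 and the IOP-treated retinas 0.981, 3.97 and 1.55 FPKM. With GCV the control retinas of mice 1, 2 and 5 held 1.44, 3.03 and 1.97 FPKM and the IOP-treated retinas 3.18, 1.88 and 4.50 FPKM. It was higher in the IOP-treated eye of mice 1, 4 and 5 and lower in that of mice 2, 3 and 6, as Gap43 was. The Adcyap1 difference over 6 mice was 0.23 on the log2 scale (95% interval -0.33 to 0.78, adjusted p = 0.585, limma).

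**Figure D2:**
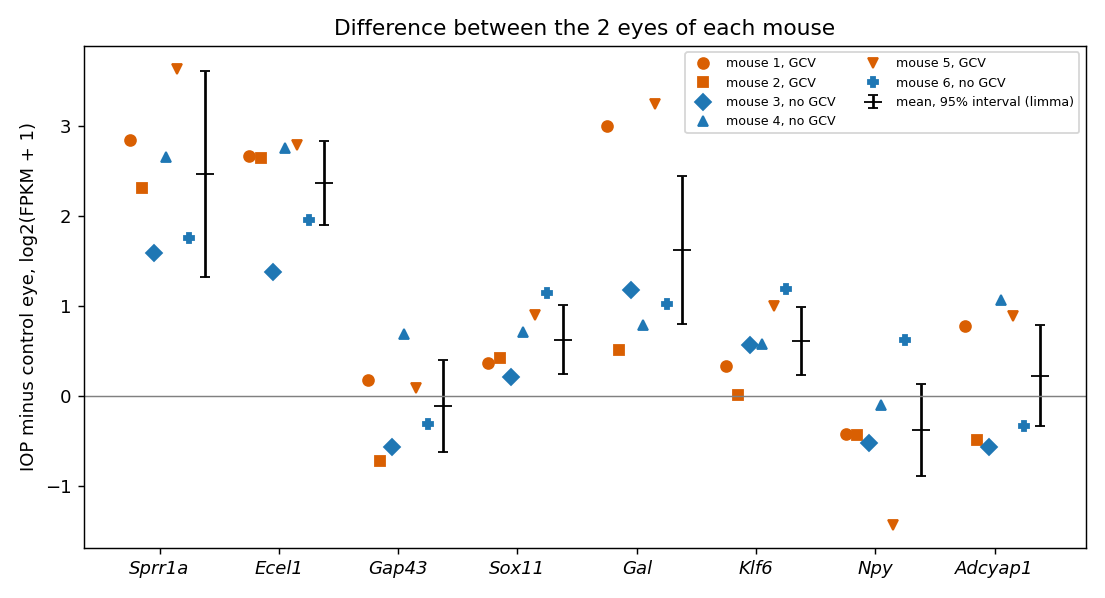
Difference between the IOP-treated and the control eye of each mouse (vertical axis, log2(FPKM + 1)) for the 8 genes, with the mean and 95% interval of the limma fit in black. Coloured symbols are single mice. All 6 differences of Sprr1a, Ecel1, Sox11, Gal and Klf6 lie above 0, and those of Gap43 and Adcyap1 lie on both sides of it in 3 mice each.

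The mice differed in how far the members moved. The mean difference of the 5 called members was 0.984 in mouse 3, 1.18 in mouse 2, 1.41 in mouse 6, 1.50 in mouse 4, 1.84 in mouse 1 and 2.31 in mouse 5, on the log2 scale. Ranked with their sign, the differences were lowest in mouse 3 for 4 of the 8 members, Ecel1, Sprr1a, Sox11 and Adcyap1. For Adcyap1 this was a fall, of -0.57. They were highest in mouse 5 for 3 members, Sprr1a, Ecel1 and Gal. Mouse 6 had the highest signed difference for Sox11, Klf6 and Npy, although Npy moved further in mouse 5, by -1.43. The order was thus not the same for all members. The microglia and macrophage markers of the IOP-treated retinas summed to 880, 237, 1033, 430, 736 and 2482 FPKM in mice 3, 2, 6, 4, 1 and 5, against 32.9 to 84.9 FPKM in the 6 control retinas. Mouse 5 was highest in both, and the other mice did not keep the same order.

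The 3 mice without GCV and the 3 with GCV were also tested separately, each within the same fit over 12 retinas. Without GCV, 1 of the 8 members was called, Ecel1, where 1.65% of all genes were called in either direction. Its difference was 2.03 on the log2 scale (standard error 0.29, adjusted p = 0.0125, limma), and the call was lost without the control retina of mouse 3 or 4 (adjusted p = 0.0662 and 0.0598, limma), with only the groups compared (0.0574) and without both retinas of mouse 6 (0.0787). The differences of Sprr1a (2.0, adjusted p = 0.207), Gal (0.99, adjusted p = 0.322), Klf6 (0.78, adjusted p = 0.159) and Sox11 (0.69, adjusted p = 0.201) were positive in all 3 mice and did not pass. Adcyap1 (0.06), Npy (0.00) and Gap43 (-0.06) lay near 0.

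With GCV, Ecel1 was again the only member called, where 1.80% of all genes were called. The difference was 2.70 on the log2 scale (standard error 0.29, adjusted p = 0.00368, limma), and leaving out any 1 of the 6 retinas compared did not end the call. Sprr1a differed by 2.93 (adjusted p = 0.0740, limma) and was called when the eyes were treated as pairs (adjusted p = 0.0260, limma). Gal differed by 2.25 (adjusted p = 0.0633, limma) and was called without the IOP-treated retina of mouse 2 (adjusted p = 0.00548, limma). Sox11 (0.56, adjusted p = 0.242), Klf6 (0.45, adjusted p = 0.346), Adcyap1 (0.39, adjusted p = 0.609), Gap43 (-0.15, adjusted p = 0.871) and Npy (-0.76, adjusted p = 0.239) did not pass, and Npy was lower in the IOP-treated eye of all 3 mice.

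Whether GCV changed the response to IOP was tested as the difference between these differences. No member was called, and neither was any of the 18509 genes (0%), of which 358 had an unadjusted p under 0.05 (limma). That last number rested on single libraries, at 1322 without the IOP-treated retina of mouse 3, 810 without that of mouse 4 and 547 without that of mouse 2, and with 1 retina left out 0 to 2 genes were called. The response of Gal was larger with GCV by 1.26 on the log2 scale (95% interval -0.39 to 2.90), with differences of 3.00, 0.51 and 3.24 in mice 1, 2 and 5 against 1.17, 0.79 and 1.02 in mice 3, 4 and 6. For Sprr1a it was larger by 0.93 (95% interval -1.35 to 3.21) and for Ecel1 by 0.67 (95% interval -0.25 to 1.59). The 3 intervals hold 0 as well as values above 1 log2 unit. For Npy the value was -0.76 (95% interval -1.78 to 0.26), for Klf6 -0.33, for Sox11 -0.12, for Gap43 -0.09 and for Adcyap1 0.34.

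GCV was also compared with no GCV between mice. In IOP-treated retinas no member and no gene was called (0% of 18509, with 774 at an unadjusted p under 0.05, limma). Without the IOP-treated retina of mouse 3 or 4 that number was 2213 or 2645, and 0 to 4 genes were called with 1 retina left out, none of them a member. The largest values were those of Gal, 0.96 higher with GCV (95% interval -0.21 to 2.12), and Ecel1, 0.66 higher (adjusted p = 0.819, limma), with 5.52 to 7.02 FPKM in the GCV-treated mice around or above the 2.10, 7.13 and 2.86 FPKM of the others. In control retinas no member and no gene was called either (0%, with 295 at an unadjusted p under 0.05, limma, or 189 without that of mouse 3, and 0 to 3 genes called with 1 retina left out). There the members differed by -0.72 (Sprr1a, with the high control retina of mouse 6 in the group without GCV) to 0.34 (Gap43) on the log2 scale. These comparisons use the same retinas as the tests of IOP above and are not independent of them.

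**Figure D3:**
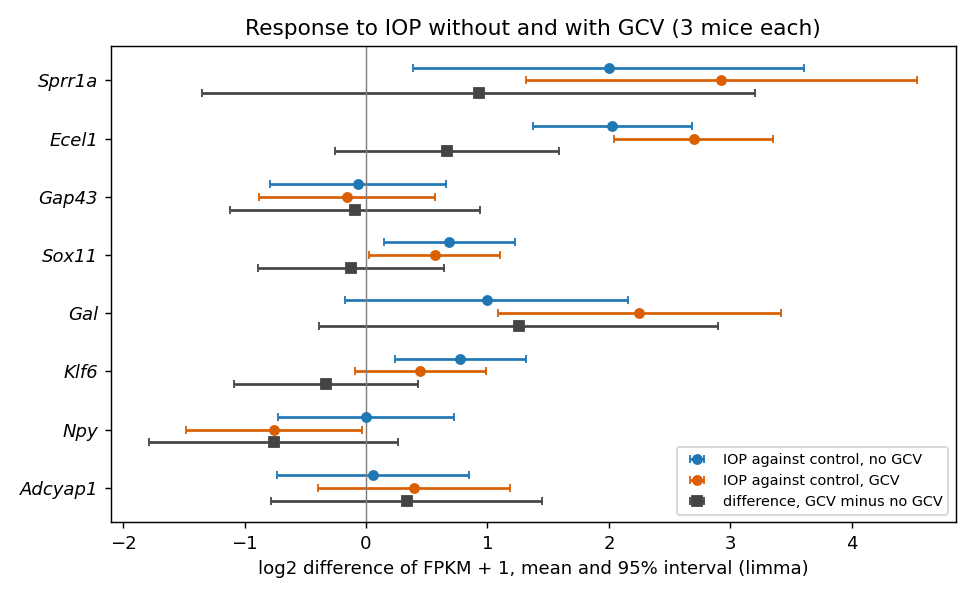
Response of the 8 genes to IOP (horizontal axis, log2 difference of FPKM + 1) in the 3 mice without GCV (blue), the 3 mice with GCV (orange) and the difference between both (dark squares), each with its 95% interval from limma. The dark intervals of all 8 genes include 0.

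Other genes of the axon injury program were taken from 5 lists, also chosen with earlier results of these data known. Of the 14 injury transcription factors reported here, 6 were called higher over the 6 mice (median difference 0.44, all genes 0.01), beside 6.76% of all genes. In the same retinas 5 of 6 markers of astrocytes and reactive glia (median difference 2.72) and 6 of 8 of microglia and macrophages (median difference 1.83) were called higher, and the part of these cells in the values of the lists was not tested. Cebpd went from 3.41 ± 0.546 to 42.7 ± 14.3 FPKM (SD, n = 6), a log2 difference of 3.23 (adjusted p = 0.000131, limma). Stat3, which carries signals of interleukin-6 family cytokines, went from 11.9 ± 1.66 to 43.0 ± 6.26 FPKM (adjusted p = 0.000106, limma), and Atf3, a hallmark factor of axotomized neurons, from 4.73 ± 1.19 to 24.0 ± 11.6 FPKM (adjusted p = 0.00184, limma). Egr1, Jun and Fos were the other genes called higher. The most abundant factor of the list, Ddit3, differed by 0.40 on the log2 scale and was not called.

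Of 12 growth cone and cytoskeleton proteins, 2 were called higher and 2 lower (median difference -0.21), beside 6.76% and 5.44% of all genes. Tubb6, a tubulin of regenerating neurons, went from 2.49 ± 0.790 to 9.25 ± 3.74 FPKM (SD, n = 6, adjusted p = 0.00278, limma), and Hspb1, a small heat shock protein, from 2.26 ± 1.28 to 6.97 ± 2.39 FPKM (adjusted p = 0.0234, limma). Tmsb10, an actin-binding peptide, went from 72.8 ± 7.47 to 56.6 ± 7.39 FPKM (adjusted p = 0.0395, limma), and Stmn2, a microtubule regulator of neurons, was the other gene called lower, in retinas where 8 of 10 RGC markers were called lower too. Tuba1a, the most abundant at 642 ± 62.4 FPKM in control retinas, was at 670 ± 145 FPKM in IOP-treated retinas (adjusted p = 0.906, limma).

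Surface and cytokine receptors, with the feedback inhibitor Socs3, had 6 of 12 genes called higher and 1 lower (median difference 0.55), beside 6.76% and 5.44% of all genes. Osmr, the oncostatin M receptor, went from 1.49 ± 0.416 to 6.32 ± 0.897 FPKM (SD, n = 6, adjusted p = 0.000294, limma). Socs3 went from 2.05 ± 0.685 to 21.6 ± 12.1 FPKM (adjusted p = 0.000417, limma) and the hyaluronan receptor Cd44 from 2.65 ± 0.684 to 15.1 ± 9.26 FPKM (adjusted p = 0.00150, limma). Il6st, Chl1 and Tnfrsf12a were also called higher, and Cntfr, the receptor of ciliary neurotrophic factor, lower. The adhesion molecule Ncam1, the most abundant, differed by 0.05 on the log2 scale. Osmr is also on the list of reactive glia markers.

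Of 10 other neuropeptides, 2 were called lower and none higher (median difference -0.32), where 5.44% and 6.76% of all genes were called lower and higher. Cartpt, which marks a type of RGC, went from 115 ± 18.0 to 67.0 ± 27.3 FPKM (SD, n = 6, adjusted p = 0.0456, limma) and Pdyn, the dynorphin precursor, from 5.85 ± 2.02 to 1.93 ± 1.13 FPKM (adjusted p = 0.0254, limma). Of the neuropeptide genes among the members and in this list, Gal was thus the only one called higher. None of 10 neuropeptide receptors, those of galanin, neuropeptide Y and PACAP among them, was called in any comparison. The most abundant, Vipr2, a receptor of PACAP, stood at 9.64 ± 1.51 FPKM in control retinas against 5.20 ± 2.83 FPKM after IOP elevation (adjusted p = 0.0619, limma).

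**Figure D4:**
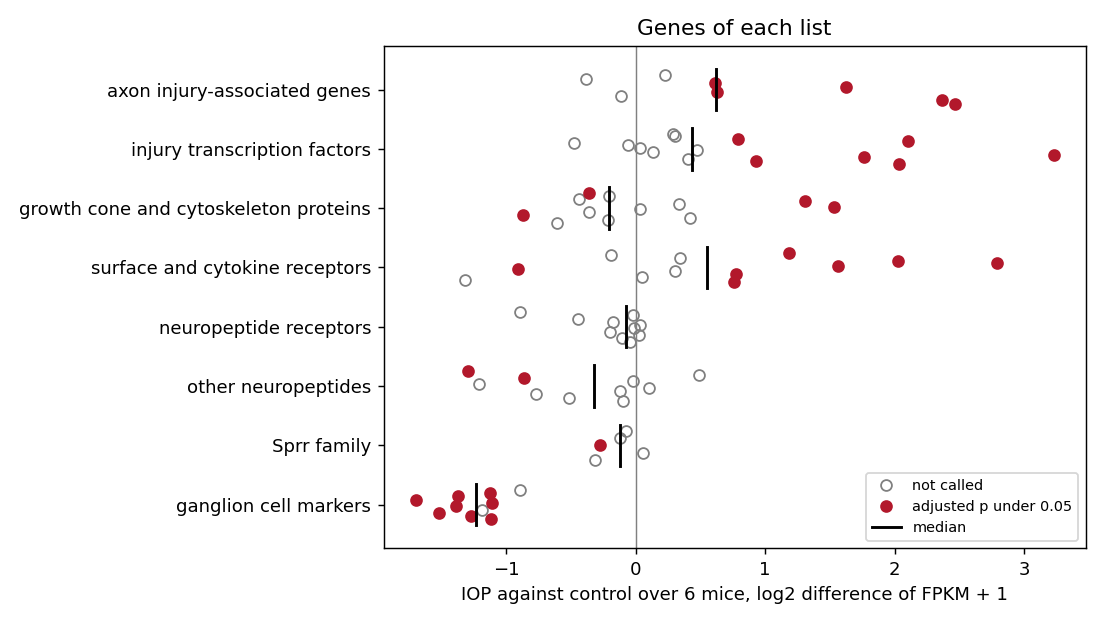
Log2 difference between IOP-treated and control retinas over 6 mice (horizontal axis, FPKM + 1) of each gene in the 8 member genes, 6 pathway lists and the RGC markers. Filled red points are genes called at an adjusted p under 0.05, open points are not called, and black bars are medians. The members' median lies at 0.62 and that of the RGC markers at -1.23.

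Genes whose 6 differences between the eyes lay nearest to those of each called member were found among the 12910 genes whose mean reached 1 FPKM, by the root mean square distance on the log2 scale. Sprr1a and Ecel1 were near each other (0.397), each with Isg15, an interferon-induced ubiquitin-like protein, among its 3 nearest genes (0.354 from Sprr1a and 0.507 from Ecel1). Lst1 (0.405), a leukocyte gene, was the other gene near Sprr1a, and Tagln2 (0.523), an actin-binding protein, the other near Ecel1. Gal had Ncf4 (0.394), Irf5 (0.481) and Rhog (0.504), of which the first is a subunit of the phagocyte oxidase and the second an interferon regulatory factor. Sox11 had Gcnt2 (0.141), Pdk3 (0.171) and Dnmt3b (0.172), and Klf6 had Arhgap17 (0.125), Ccdc71l (0.155) and Tnpo1 (0.169). Distances are shorter for members with small differences, and the pattern rests on 6 mice.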

How the data were processed

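Libraries were prepared from 1 retina each with a stranded mRNA kit and sequenced as 50-base read pairs. The authors describe counting read pairs on RefSeq exons with HOMER, and the submitters' processing notes name mm10, TopHat2, Bowtie2, Cufflinks and Cuffdiff without their roles. The deposited values are FPKM, a unit inferred from the table, and hold no counts, so fragments behind a value are estimates (read from the smallest values among 3622 genes that have a single transcript and 1500 bases or more, where 228 to 321 such values per library were used and 78.9% to 86.0% of them lay within 0.15 of a whole fragment) and no counting intervals are given. limma 3.58.1 (R 4.3.3) was fitted to log2(FPKM + 1) (4 group means, variance trend, Benjamini-Hochberg adjustment over 18509 genes at 0.05). The paper's text names no test for the RNA-seq comparison, and the notes do not say whether Cuffdiff served as one. Tables and figures used matplotlib 3.10.9, numpy 2.4.6, pandas 2.3.3 and Python 3.11.15. The 2 eyes of a mouse pair the samples by design. Deviations of paired retinas from their group means correlated at -0.117 to 0.388 over 12910 genes. Members and lists were chosen with earlier results of these data known. Of each list, up to 3 called genes, those of smallest adjusted p, and the most abundant gene are given with values. Other called genes are named only. 1 gene of the list of injury transcription factors is not reported here, and the counts and median of that list leave it out. The alternatives were the mouse as a block, 0.1 as the pseudocount, only genes reaching 1 FPKM in 3 retinas, a fit to only the groups compared, median-ratio scaling, quantile normalization, no variance trend, an adjusted p under 0.1 and each retina left out, with mouse 6 left out added after the data were seen.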

Additional observations from a re-analysis of the deposited data

How the results depend on the processing

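Of 392 alternative values of the members' IOP responses, 340 kept their direction and side of the threshold, 31 lost the call, 6 gained it and 15 changed sign. Over 6 mice, 5 members were called, against 3 with the mouse as a replicate block (Sprr1a, Ecel1, Sox11), 2 without both retinas of mouse 6 (Sprr1a, Ecel1) and 2 to 5 with 1 retina left out. With GCV, 1 was called, against 2 with the replicate block, 3 with the filter on low values, 3 at an adjusted p under 0.1 and 1 to 2 with 1 retina left out. Without GCV, 1 was called, against 0 with only the groups compared, 0 without mouse 6 and 0 to 1 with 1 retina left out. All 8 members passed the filter, Ecel1 and Sox11 through IOP-treated retinas only. No alternative called a member for the GCV comparisons or the interaction. The replicate block changed no other call. Sign changes were all in members that were not called: without GCV, Gap43 (0.0611 without mouse 6, -0.441 to 0.273 with 1 retina left out), Npy (-0.000355 with a pseudocount of 0.1, -0.0714 with quantile normalization, -0.309 without mouse 6, -0.231 to 0.310 with 1 retina left out) and Adcyap1 (-0.324 to 0.340 with 1 retina left out), with GCV, Gap43 (-0.384 to 0.0698), and over 6 mice, Gap43 (-0.297 to 0.0595). Over all genes, the counts called over 6 mice, without and with GCV were 2258, 306 and 334, and with the replicate block 1351, 75 and 144. Without mouse 6 the counts over 6 mice and without GCV were 948 and 65, with only the groups compared the count with GCV was 92, and with 1 retina left out they ran over 830 to 4515, 23 to 2490 and 77 to 716, the highest 2 without the IOP-treated retina of mouse 4. Quantile normalization turned 1252 higher and 1006 lower calls over 6 mice into 1241 and 1719. The cause of these changes was not tested. Values under 1 FPKM rest on few fragments.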
